A study of Mus musculus with 14 samples.

Results

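Mast cells and basophils are effector cells of allergy and of defence against parasites, and 8 genes known for their products were followed here through stem and progenitor cells of mouse bone marrow: Cpa3, Ms4a2, Fcer1a, Mcpt8, Hdc, Gzmb, Cma1 and Tpsb2. A gene was represented by the brightest probe set, by mean over the 14 arrays, among those annotated with that symbol and no other. All 8 were measured, by 11 probe sets, and they are 8 of the 18194 genes on the arrays that could be named in this way. Both cell types arm themselves through the high-affinity IgE receptor, whose alpha chain binds the antibody and whose beta and gamma chains carry the signal. Crosslinking of that receptor empties granules that hold proteases and histamine. In the mouse both lineages arise in the bone marrow from progenitors that also give rise to other blood cells, and transcripts of their granule proteins and of the receptor chains are found in such progenitors before any mature cell is formed.

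The cells were Lineage-Sca+ckit+ (LSK) bone marrow cells, the fraction that contains hematopoietic stem cells and multipotent progenitors. All mice were double transgenic on a C57BL/6 background: a human CD34 promoter drove the tetracycline transactivator (huCD34-tTA), which switched on a histone H2B-GFP fusion (Tet-O-H2B-GFP). At 6 to 8 weeks of age all mice were put on drinking water with 1 mg/ml doxycycline, which they had for 12 weeks and which stopped new labelling, so that each later division diluted the GFP already on the chromatin. LSK cells were then sorted by GFP into 5 ranked levels, each about 1 to 2 divisions from the next: GFP0, the most diluted (2 arrays), GFP1 (3), GFP2 (3), GFP3 (2) and GFP4, the best retained (4). There was no undiluted and no unlabelled control group, so the levels are compared with each other. The label reads division only in cells in which the CD34 promoter was active before the chase. The arrays are labelled as biological replicates without naming the animals, so a p-value reads only the variation among the sorted samples, part of which may be technical. Sorting used GFP level and the LSK markers and none of the 8 genes.

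All levels are log2 expression and all differences are log2 differences. Of the 14 arrays, 3 stood apart: GFP0 replicate 1 and GFP4 replicate 1 had the narrowest interquartile ranges over all probe sets (2.09 and 2.21, the highest being 2.73), and GFP4 replicate 2 lay at -68.7 on the third principal component. Genes of the LSK phenotype were read beside the label. Kit, the stem cell factor receptor of both LSK cells and mast cells, lay between 8.05 and 9.91 on the 14 arrays. Procr, Mecom and Hlf, which mark stem cells, rose with GFP level (slopes of 0.78 ± 0.11, 0.76 ± 0.11 and 0.65 ± 0.10, SE). These values do not measure the purity of the sort, and markers of other blood cells are given further on. Ly6a, which encodes Sca1, had no probe set of its own symbol alone. To describe how low a probe set reads where no transcript is assumed, 44 odorant receptor probe sets were used. Their 95th percentile lay between 6.94 and 8.04 depending on the array and was highest in GFP0 replicate 1. A level at or below that percentile is called dim here.

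Of the 8 genes, 3 fell with GFP level by the test given further on, and their promoters are shown because 1 family of motifs recurs in them. Each window runs from 250 bases before to 50 bases after the annotated transcription start (RefSeq, GRCm38.p6), 5′ to 3′ on the gene's strand, at chr3:20242132-20242431 for Cpa3, chr19:11623670-11623969 for Ms4a2 and chr1:173227180-173227479 for Fcer1a, all on the minus strand. Capitals mark GATA words.
Cpa3: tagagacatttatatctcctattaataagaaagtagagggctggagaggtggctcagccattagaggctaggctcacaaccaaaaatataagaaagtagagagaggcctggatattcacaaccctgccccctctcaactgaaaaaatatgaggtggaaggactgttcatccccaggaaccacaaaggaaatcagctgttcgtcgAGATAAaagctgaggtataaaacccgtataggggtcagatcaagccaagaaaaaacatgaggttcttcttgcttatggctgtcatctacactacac
Ms4a2: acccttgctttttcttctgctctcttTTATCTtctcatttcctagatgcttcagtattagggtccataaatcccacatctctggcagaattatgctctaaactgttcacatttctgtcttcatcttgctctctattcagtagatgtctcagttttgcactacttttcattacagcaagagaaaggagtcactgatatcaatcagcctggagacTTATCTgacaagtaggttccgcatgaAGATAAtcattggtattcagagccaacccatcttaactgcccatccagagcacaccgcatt
Fcer1a: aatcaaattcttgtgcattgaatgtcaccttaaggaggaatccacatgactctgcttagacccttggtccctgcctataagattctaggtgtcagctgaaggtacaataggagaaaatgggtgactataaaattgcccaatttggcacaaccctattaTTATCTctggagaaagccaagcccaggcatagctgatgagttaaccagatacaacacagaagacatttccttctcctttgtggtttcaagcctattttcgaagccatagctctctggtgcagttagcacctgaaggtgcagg
The word AGATAA was searched on both strands together with its variants, namely TGATAA with a first T, AGATAG with a last G, and TGATAG with both; GATA factors are known to bind such words. Cpa3 held 1 word, starting at position -46 from the start of transcription. Ms4a2 held 3, at positions -224, -37 and -11, and Fcer1a held 1, at -92. Of 32851 promoter windows of the same length, 29.8% held at least 1 such word and 1.76% held at least 3. Of the other members with a window, Hdc (at -221) and Cma1 (at -79) held 1 word each, Mcpt8 and Gzmb held none, and Tpsb2 had no window in the table. The E-box word CAGCTG, which does not overlap these GATA words, stood at -59 in Cpa3 and at -158 in Fcer1a, against 16.3% of all windows. These matches are descriptions of letters, not of bound sites.

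Of the 3 chains of the IgE receptor, 2 had falling transcripts as GFP was retained. Fcer1a, the IgE-binding alpha chain, and Ms4a2, the beta chain that amplifies the signal, both fell across the 5 levels, while Fcer1g, the gamma chain that other Fc receptors share, did not pass the test. Ms4a2 read 9.40 and 11.07 at GFP0, 10.31, 8.75 and 6.84 at GFP1, 9.10, 7.65 and 6.43 at GFP2, 6.33 and 6.23 at GFP3, and 6.71, 7.60, 6.73 and 6.04 at GFP4. The 2 GFP0 arrays were among the 3 highest of the 14, and both GFP3 arrays and 3 of the 4 GFP4 arrays were dim. Within GFP1 the replicates were so far apart that the highest reached the GFP0 range and the lowest lay in the GFP4 range. The slope was -0.93 ± 0.19 per level (SE; limma adjusted p = 0.0224), with a 95% interval from -1.34 to -0.51. A second probe set for Ms4a2 was dimmer, between 5.54 and 7.53, but its replicates lay closer together. In it 82.6% of the variance lay between levels, against 65.1% in the brighter one, and its slope was -0.34 ± 0.06 (SE; adjusted p = 0.00919 over all 34958 probe sets with 1 symbol).

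Fcer1a read 7.68 and 8.34 at GFP0, 8.57, 6.40 and 6.08 at GFP1, 7.54, 6.10 and 5.21 at GFP2, 5.27 and 5.03 at GFP3, and 6.12, 6.56, 5.38 and 5.16 at GFP4. Only 3 of the 14 arrays were above the dim range, 1 each at GFP0, GFP1 and GFP2, so much of its fall lies where this probe set may no longer report a transcript. The slope was -0.63 ± 0.16 per level (SE; limma adjusted p = 0.0475). Fcer1g was bright throughout, above the dim range on all 14 arrays. It averaged 9.59 ± 0.48 at GFP0 (SD, n = 2), 9.75 ± 1.28 at GFP1 (n = 3), 9.18 ± 0.83 at GFP2 (n = 3), 8.43 ± 0.04 at GFP3 (n = 2) and 8.86 ± 0.43 at GFP4 (n = 4), and its slope was -0.28 ± 0.13 (SE; adjusted p = 0.307).

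Cpa3 was the brightest of the 3 genes that fell. It encodes carboxypeptidase A3, a granule enzyme of mast cells that is also transcribed in basophils and in their progenitors. Cpa3 read 10.33 and 10.96 at GFP0, 10.42, 10.11 and 8.61 at GFP1, 8.92, 8.60 and 7.76 at GFP2, 7.05 and 7.35 at GFP3, and 6.38, 9.77, 6.67 and 6.44 at GFP4. It was above the dim range on all 8 arrays of GFP0 to GFP2, on 1 of the 2 GFP3 arrays and on 1 of the 4 GFP4 arrays, GFP4 replicate 2. With that array at 9.77, GFP3 to GFP4 overlapped GFP0 to GFP2, where the lowest array read 7.76. The other GFP3 and GFP4 arrays read 7.35 at most. This split of the levels was made after the values were seen, and its share over all genes was not counted. The slope was -0.92 ± 0.18 per level (SE; limma adjusted p = 0.0191; 95% interval from -1.31 to -0.52), and without GFP4 replicate 2 it was -1.08 ± 0.10 (adjusted p = 0.000223).

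**Figure D1:**
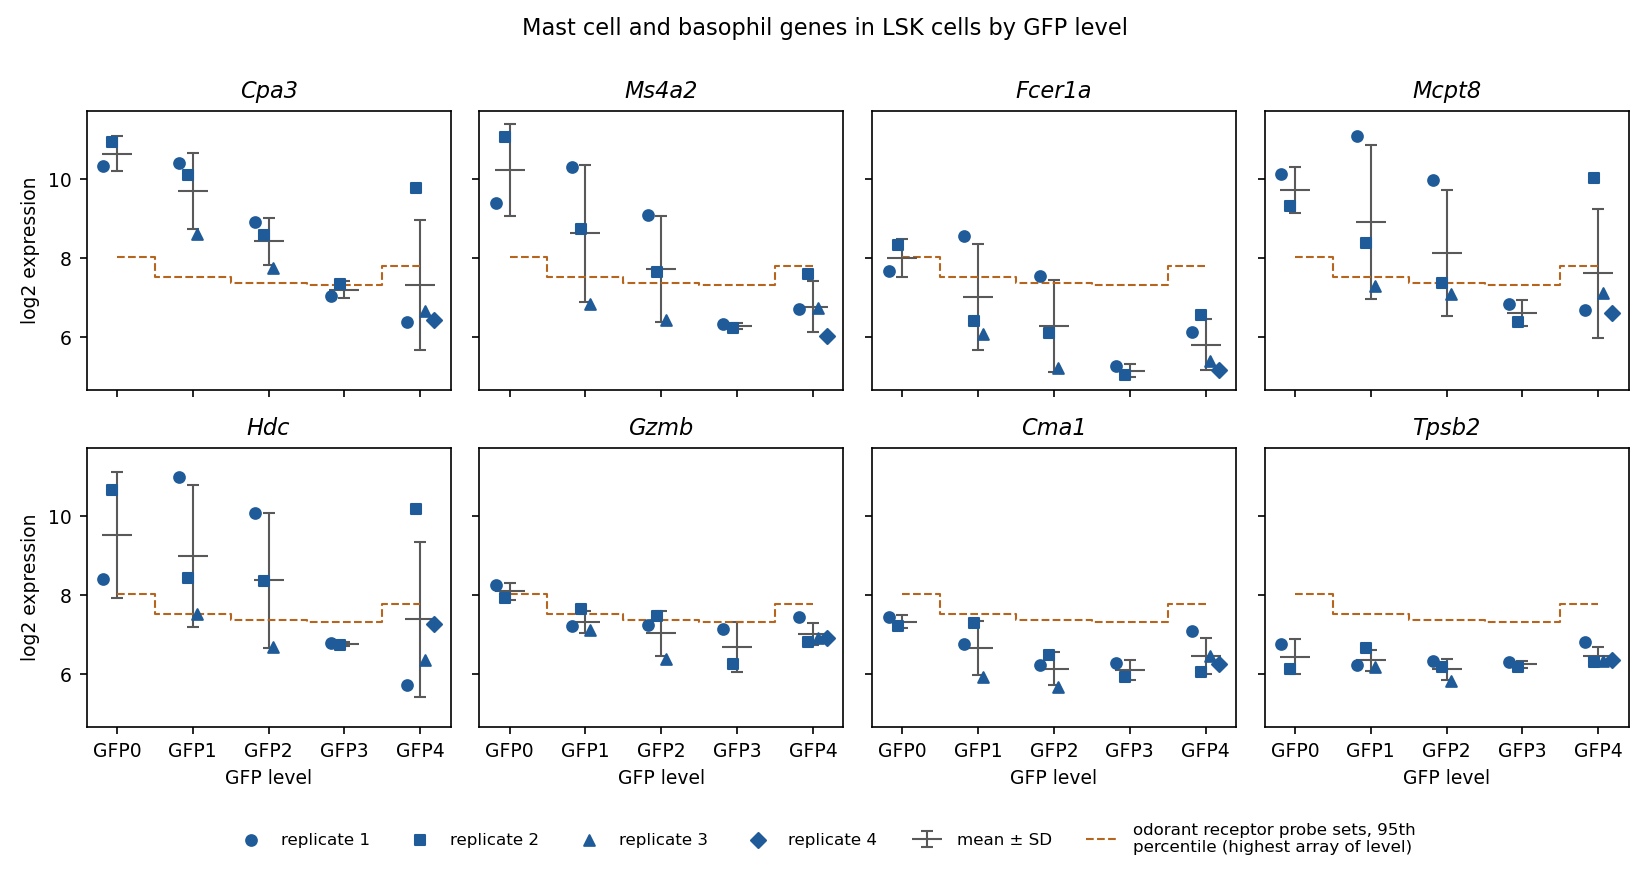
Log2 expression of the 8 genes on each of the 14 arrays, by GFP level, with the mean and SD of each level; the dashed line is the highest 95th percentile of the odorant receptor probe sets among the arrays of a level. The means of Cpa3, Ms4a2, Fcer1a, Mcpt8 and Hdc descend to GFP3. Mcpt8 and Hdc spread widely within GFP1, GFP2 and GFP4, and so do Ms4a2 within GFP1 and GFP2 and Cpa3 within GFP4. Cma1 and Tpsb2 stay under the line.

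Mcpt8 and Hdc, a granule protease and the enzyme that makes histamine, had slopes of the same size as Fcer1a but far wider spreads, and neither passed. Mcpt8 encodes a protease that in the mouse is characteristic of basophils. Its levels were 10.15 and 9.32 at GFP0, 11.10, 8.38 and 7.29 at GFP1, 9.98, 7.36 and 7.08 at GFP2, 6.84 and 6.37 at GFP3, and 6.68, 10.04, 7.13 and 6.61 at GFP4. The highest array was GFP1 replicate 1, not a GFP0 array, and GFP4 replicate 2 lay among the GFP0 arrays, so the levels overlap. The slope was -0.66 ± 0.25 (SE; limma adjusted p = 0.202), and 37.4% of the variance lay between levels. Without GFP4 replicate 2 it was -0.82 ± 0.21 (adjusted p = 0.0531).

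Hdc encodes histidine decarboxylase, which makes histamine from histidine. It read 8.40 and 10.66 at GFP0, 11.01, 8.43 and 7.53 at GFP1, 10.10, 8.37 and 6.68 at GFP2, 6.79 and 6.73 at GFP3, and 5.72, 10.20, 6.36 and 7.27 at GFP4. Every level but GFP3 held replicates more than 2 log2 units apart, and GFP3 was dim on both arrays. The slope was -0.65 ± 0.28 (SE; limma adjusted p = 0.261). A second, dimmer probe set gave -0.16 ± 0.09 (adjusted p = 0.410 over all probe sets).

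The other 3 members are a cytotoxic protease and a pair of mast cell proteases, and none of them passed. Gzmb encodes granzyme B, best known from cytotoxic lymphocytes and also found in mast cells. It read 8.26 and 7.94 at GFP0, 7.23, 7.65 and 7.11 at GFP1, 7.24, 7.47 and 6.39 at GFP2, 7.14 and 6.25 at GFP3, and 7.44, 6.81, 6.93 and 6.92 at GFP4. Both GFP0 arrays lay above all others, a split seen after the fact whose share over all genes was not counted. On GFP0 replicate 1, an array of narrow spread, the dim range reached 8.04, close under the 8.26 of Gzmb. None of the GFP3 and GFP4 arrays was above the dim range. The slope of -0.28 ± 0.07 missed the threshold (SE; limma adjusted p = 0.0573), which it passed in 7 of 25 alternatives. Among these were cyclic loess, the filter on dim genes and the mean over probe sets. Gzmb has no second probe set, so the last 2 left its own values unchanged and altered only the other genes of the fit. Its passes in these 2 are therefore no separate support for a fall. Cma1, a mast cell chymase, lay between 5.68 and 7.46 and was dim on all 14 arrays, with a slope of -0.23 ± 0.08 (adjusted p = 0.163). Tpsb2, a mast cell tryptase, lay between 5.82 and 6.81, also dim throughout, and its slope was -0.01 ± 0.05 (adjusted p = 0.955; 95% interval from -0.13 to 0.11). Its second probe set, between 5.18 and 6.28, was dim as well. For Cma1 and Tpsb2 these values are readings within the range of the odorant receptor probe sets.

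Over the slope, 3 of the 8 members were called and all 3 were lower with GFP level, where 1.07% of all genes were called lower and 3.35% in either direction. The median slope was -0.64 over the 8 members and -0.01 over all genes. All 3 calls were lost without GFP0 replicate 1, without GFP0 replicate 2, without GFP3 replicate 2, without both arrays of narrow spread, with array quality weights, and with covariates for the 3 prime to 5 prime signal differences (of Actb and of Gapdh), although the slopes stayed negative in each. Without GFP4 replicate 4, or without the 3 arrays that stood apart, Cpa3 alone of the 3 stayed past the threshold. The GFP0 group has 2 arrays, and the slope without it was not called for any member: over GFP1 to GFP4 it was -0.84 ± 0.23 for Cpa3 (SE; adjusted p = 0.0934), -0.70 ± 0.24 for Ms4a2 (adjusted p = 0.191) and -0.48 ± 0.20 for Fcer1a (adjusted p = 0.297), in a comparison with 1.51% of all genes called. For the slope over GFP1 to GFP4, 3 members and 2446 of the 18194 genes had an unadjusted p under 0.05 in limma. Without GFP4 replicate 2 this slope of Cpa3 was -1.09 ± 0.13 (adjusted p = 0.00168).

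**Figure D2:**
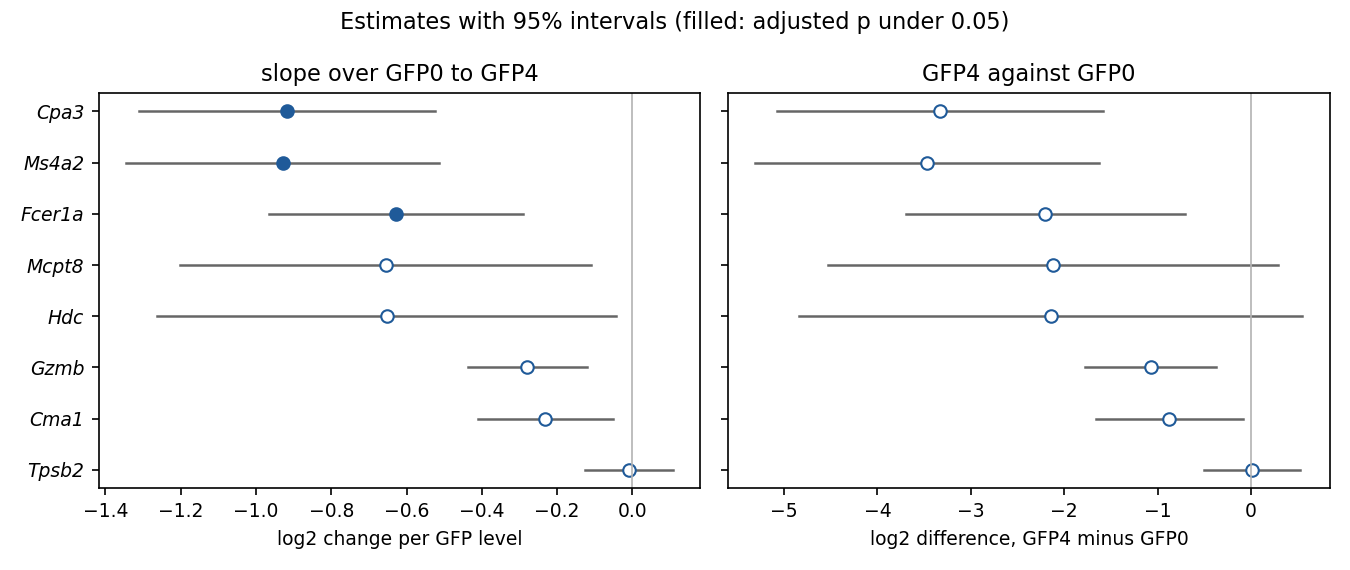
Slope per GFP level over GFP0 to GFP4 (left) and difference of GFP4 minus GFP0 (right) for each gene, in log2 units, with 95% intervals; filled points have an adjusted p under 0.05. The slopes of Cpa3, Ms4a2 and Fcer1a pass at -0.92, -0.93 and -0.63, and no difference between the end levels passes.

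Between the ends of the label range, Ms4a2 and Cpa3 differed most of the 8, with lower means at GFP4 than at GFP0, but no member passed after adjustment. Cpa3 averaged 7.32 ± 1.64 at GFP4 (SD, n = 4) and 10.64 ± 0.44 at GFP0 (SD, n = 2), a difference of -3.33 ± 0.81 (SE; limma adjusted p = 0.0588). Ms4a2 averaged 6.77 ± 0.64 at GFP4 and 10.24 ± 1.18 at GFP0, a difference of -3.47 ± 0.85 (adjusted p = 0.0609), and in its second probe set -1.39 ± 0.25, which passed among all probe sets (adjusted p = 0.0209). Fcer1a averaged 5.81 ± 0.65 at GFP4 and 8.01 ± 0.47 at GFP0, a difference of -2.20 ± 0.69 (adjusted p = 0.139). In Cpa3, Ms4a2, Fcer1a, Gzmb and Cma1 all 4 GFP4 arrays lay below both GFP0 arrays, an arrangement found in 7.75% of all genes. In this comparison 1.68% of all genes were called. An unadjusted p under 0.05 in limma was reached by 5 members and by 2676 of the 18194 genes.

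The remaining members differed less or less evenly between GFP4 and GFP0. Gzmb averaged 7.02 ± 0.28 at GFP4 and 8.10 ± 0.22 at GFP0, a difference of -1.08 ± 0.32 (SE; limma adjusted p = 0.123). For Mcpt8 the means were 7.61 ± 1.63 at GFP4 and 9.73 ± 0.59 at GFP0 (-2.12 ± 1.12, adjusted p = 0.419), and for Hdc 7.39 ± 1.98 at GFP4 and 9.53 ± 1.60 at GFP0 (-2.15 ± 1.25, adjusted p = 0.470). In both genes GFP4 replicate 2 lay above a GFP0 array while the other 3 GFP4 arrays lay below both. Tpsb2 averaged 6.45 ± 0.24 at GFP4 and 6.44 ± 0.44 at GFP0, with a 95% interval of the difference from -0.51 to 0.53. Without GFP4 replicate 2 the difference of Cpa3 was -4.15 ± 0.46 and passed (adjusted p = 0.00165), and that of Ms4a2 was -3.74 ± 0.88 (adjusted p = 0.0503).

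No single step between neighbouring levels was called for a member, nor for any of the 18194 genes (0% in each of the 4 steps, with 247 to 1969 genes at an unadjusted p under 0.05 in limma, and 1 member, Gzmb, in the step of GFP1 against GFP0). The 3 lower steps of Cpa3 were alike in size: -0.93 ± 0.85 for GFP1 against GFP0, -1.29 ± 0.76 for GFP2 against GFP1 and -1.23 ± 0.85 for GFP3 against GFP2 (SE). Its last step, GFP4 against GFP3, was 0.12 ± 0.81. For all 8 members the GFP4 mean was above the GFP3 mean, by 0.12 to 1.01, and none of these differences exceeded its error enough to pass. The GFP4 means include replicate 2, which lay far above the other GFP4 arrays in Cpa3 and Hdc. Cpa3 read 9.77 on it, and its GFP4 median was 6.56, below the 7.20 at GFP3. Hdc read 10.20 on it and 5.72, 6.36 and 7.27 on the other GFP4 arrays, against 6.79 and 6.73 at GFP3. The departure from a straight line was called for 0% of genes (1275 at an unadjusted p under 0.05, with no member among them). The test of any difference between levels was called for 0.698% of genes with no member (2331 genes at an unadjusted p under 0.05, with 4 members among them). In order of the level means, with GFP4 replicate 2 included, GFP3 stood lowest and GFP0 highest for every member but Tpsb2. The share of all genes with this order was not counted. No step between neighbouring GFP levels was called.

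The spread within levels was not shared evenly by the members. After the values were seen, Cpa3, Ms4a2, Fcer1a, Mcpt8 and Hdc were set beside Gzmb, Cma1 and Tpsb2, because the replicates of each set moved together. Pearson's r over the 14 arrays was 0.84 to 0.96 among the 10 pairs of the first 5 genes and 0.58 to 0.89 among the 3 pairs of the others, and -0.12 to 0.69 across the 15 pairs between the sets. With each level's mean taken out, r was 0.62 to 0.91, 0.77 to 0.81 and -0.20 to 0.37 in the same order. Cma1 and Tpsb2 were dim on all 14 arrays and Gzmb was above the dim range on 5, so r among them mostly compares dim readings. The median of the odorant receptor probe sets was highest on GFP0 replicate 1 (6.72) and GFP4 replicate 1 (6.67). Gzmb, Cma1 and Tpsb2 each stood above their level's mean on both of those arrays. All these points share their arrays and their hybridisations, so the values only describe which members go together on these arrays. GFP1 replicate 1, GFP2 replicate 1 and GFP4 replicate 2 stood above their level's mean in all 5 genes of the first set. GFP1 replicate 3 and GFP2 replicate 3 stood below it in all 5.

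**Figure D3:**
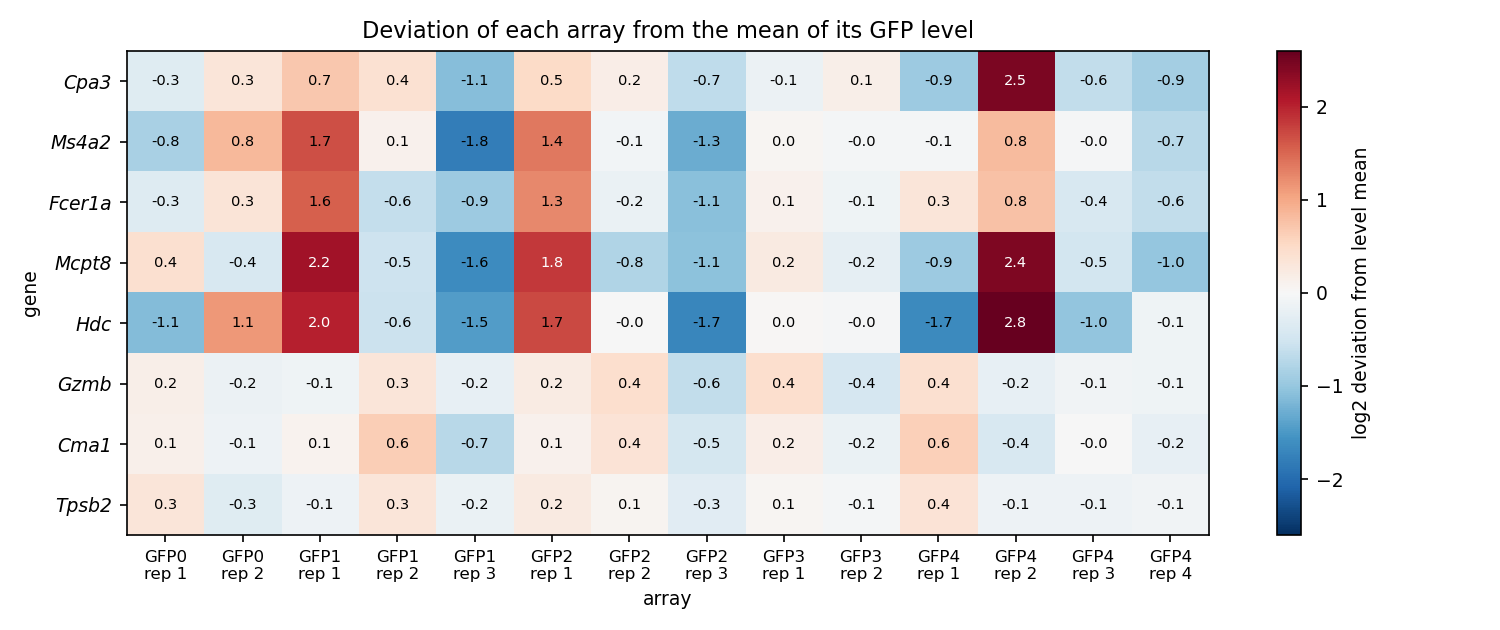
Deviation of each array from the mean of its GFP level, in log2 units, for the 8 genes (rows) and 14 arrays (columns). Cpa3, Ms4a2, Fcer1a, Mcpt8 and Hdc are high together in GFP1 replicate 1, GFP2 replicate 1 and GFP4 replicate 2, where Gzmb, Cma1 and Tpsb2 deviate by -0.41 to 0.23.

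The mean levels of markers of other myeloid cells and of erythroid cells were high on the same arrays. The mean of 12 neutrophil and monocyte markers (of 13 listed) was 12.14 and 10.69 at GFP0, 11.94, 10.93 and 8.53 at GFP1, 11.24, 9.94 and 8.14 at GFP2, 9.03 and 8.30 at GFP3, and 8.19, 10.70, 9.10 and 8.17 at GFP4. It was thus highest in its level on GFP1 replicate 1, GFP2 replicate 1 and GFP4 replicate 2, while at GFP0 it was highest on replicate 1, where Cpa3, Ms4a2, Fcer1a and Hdc were the lower of the pair. All 12 were above the dim range on at least 1 array, and 1 of them, Ltf (lactoferrin, of neutrophil granules), fell with GFP level (slope -0.63 ± 0.14, SE; adjusted p = 0.0286), at a median slope of -0.67. Eosinophil markers had a mean between 5.68 and 7.70, with GFP1 replicate 1 highest, and none of the 6 measured (of 9) passed. Of these, Prg2, the major basic protein, was above the dim range on 6 of 14 arrays, Epx, the eosinophil peroxidase, on 2, and Ccr3, the eotaxin receptor, on none. The mean of 8 erythroid markers (of 10) was highest in its level on GFP1 replicate 1 (9.08) and GFP2 replicate 1 (8.63). It was also highest in its level on GFP4 replicate 2 (8.33) and on GFP0 replicate 2 (9.35, against 8.62 on replicate 1). The 3 prime to 5 prime difference of Actb, which follows RNA length, was lowest in GFP1 replicate 1 (2.99, the others being 3.57 to 5.05). On GFP2 replicate 1 (3.63) and GFP4 replicate 2 (4.63) it was not the lowest of the level. That of Gapdh was 5.06 on GFP1 replicate 1, 5.81 on GFP2 replicate 1 and 5.29 on GFP4 replicate 2. Over all 14 arrays it ran from 4.84 to 6.58. In sorted bulk samples fewer cells of a type and less RNA per cell cannot be told apart, and the part of these markers and of RNA quality in the fall of Cpa3, Ms4a2 and Fcer1a was not tested.

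Over 5 lists of the wider mast cell and basophil programme, 2 of 58 measured genes passed the slope test (3.45%), close to the 3.35% of all genes. Of 10 other proteases and granule genes measured (of 13 listed), none passed in either direction, at a median slope of -0.03. Tpsab1, a tryptase, and Mcpt1, Mcpt2 and Mcpt4, chymases of mast cells, were dim on all 14 arrays. Tpsab1 had a slope of -0.06 ± 0.06 (SE; adjusted p = 0.715). Of 10 genes for lipid mediators, amines and cytokines (of 11), 1 passed, and it was higher with GFP level: Il4, a cytokine that basophils are known to make. It averaged 6.11 ± 0.09 at GFP0 (SD, n = 2), 6.08 ± 0.09 at GFP1 (n = 3), 6.25 ± 0.40 at GFP2 (n = 3), 6.998 ± 0.0015 at GFP3 (n = 2) and 7.69 ± 0.42 at GFP4 (n = 4), and the slope was 0.41 ± 0.06 (SE; adjusted p = 0.00314). Il4 was above the dim range on 3 arrays only, all at GFP4.

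Signalling below the receptor was measured by 12 genes (of 13), all of them above the dim range on at least 1 array and 9 on all 14, and none passed. Surface receptors of mast cells, basophils and their progenitors likewise had none of 12 past the threshold (of 14), at a median slope of -0.06. Kit had a slope of 0.24 ± 0.09 (SE; adjusted p = 0.178), and Itgb7, an integrin chain used to sort mast cell progenitors, -0.13 ± 0.08 (adjusted p = 0.435). Cd200r3, a receptor of basophils and mast cells, was dim on all 14 arrays. Il1rl1, the IL-33 receptor, had no probe set of its own symbol alone and was not measured here.

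Of 14 transcription factors of these lineages, Gata1 fell and the other 13 did not pass. Gata1 drives erythroid, megakaryocyte, mast cell and eosinophil genes, and it read 9.28 and 11.07 at GFP0, 9.35, 9.22 and 8.49 at GFP1, 9.02, 8.62 and 8.09 at GFP2, 8.18 and 8.16 at GFP3, and 8.33, 7.75, 7.71 and 7.59 at GFP4. Both GFP0 arrays lay above all GFP2, GFP3 and GFP4 arrays, a split whose share over all genes was not counted. The slope was -0.55 ± 0.10 (SE; adjusted p = 0.00916). GFP4 replicate 2, where Cpa3, Mcpt8 and Hdc were high, was not high in Gata1. Gata2, which stem cells, mast cells and basophils share, had a slope of 0.18 ± 0.05 (adjusted p = 0.0813), and Mitf, a mast cell factor, 0.11 ± 0.07 (adjusted p = 0.498).

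Gata1 is also an erythroid factor, and 2 of 8 erythroid markers (of 10) fell: Klf1, an erythroid transcription factor (-0.70 ± 0.16, SE; adjusted p = 0.0362), and Car1, carbonic anhydrase of red cells (-1.11 ± 0.28; adjusted p = 0.0496). The globin gene Hba-a1 and Alas2, an enzyme of haem synthesis, were dim on all 14 arrays. Of 18 granzymes and cytotoxic genes (of 19), set beside Gzmb, Nkg7 fell (-0.81 ± 0.18; adjusted p = 0.0287) and 11 were dim on all 14 arrays, Prf1 (perforin), Ncr1 and Cd3g among them. Of 7 B cell markers (of 9), Vpreb1, a surrogate light chain, fell (-0.80 ± 0.15; adjusted p = 0.0159). Of 8 LSK and stem cell genes (of 10), 3 rose (Procr, Mecom and Hlf, above) and Cd48, a marker of later progenitors, fell (-1.07 ± 0.15; adjusted p = 0.00286). The lists rest on textbook knowledge and overlap in what blood progenitors express, and the part that these other cell types have in the levels of the 8 genes was not tested.

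The protease genes Cma1, Mcpt8 and Gzmb lie in one cluster on mouse chromosome 14. In the RefSeq order the cluster runs Cma1, Cma2, Mcpt1, Mcpt2, Mcpt9, Mcpt4, Mcpt8, Ctsg, Gzme, Gzmd, Gzmg, Gzmn, Gzmf, Gzmc and Gzmb, and Cma2 and Mcpt9 were not measured here. Mcpt8 lay between 6.37 and 11.10 and was above the dim range on 9 of the 14 arrays, and its neighbour Ctsg, cathepsin G of myeloid granules, lay between 8.19 and 14.32 and was above it on 14. Gzmb was above it on 5. The genes on either side of Mcpt8 and Ctsg, Mcpt4 (5.70 to 6.82) and Gzme (3.18 to 3.71), were dim on all 14 arrays. The slope of Ctsg was -1.001 ± 0.31 (SE; adjusted p = 0.105), and Gzmb, at the far end, had its own slope of -0.28. The 6 granzyme genes between Ctsg and Gzmb were dim on all 14 arrays. Their slopes, between -0.06 and 0.05, are readings within the range of the odorant receptor probe sets.

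By likeness of pattern over the 14 arrays, among 11039 genes as bright as the median of the table, Cpa3 was nearest to Car1 (Pearson's r = 0.93), Cst7 (0.93), Ctsg (0.91), Serp1 (0.91) and Csf1r (0.90). Ms4a2 was nearest to Emilin2 (0.96), Car1 (0.94), Rab7b (0.94), Gng12 (0.92) and Klf1 (0.92). Fcer1a was nearest to Emilin2 (0.96), Ms4a2 (0.96), Rab7b (0.95), Mpeg1 (0.93) and Sdf2l1 (0.93). Fcer1a itself averaged 6.39, under the median of the table, and so was not among the genes searched for Ms4a2. Emilin2, Rab7b and Car1 each recur in 2 of these 3 lists. The arrays differ in group and in quality alike, so r carries both.

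**Figure D4:**
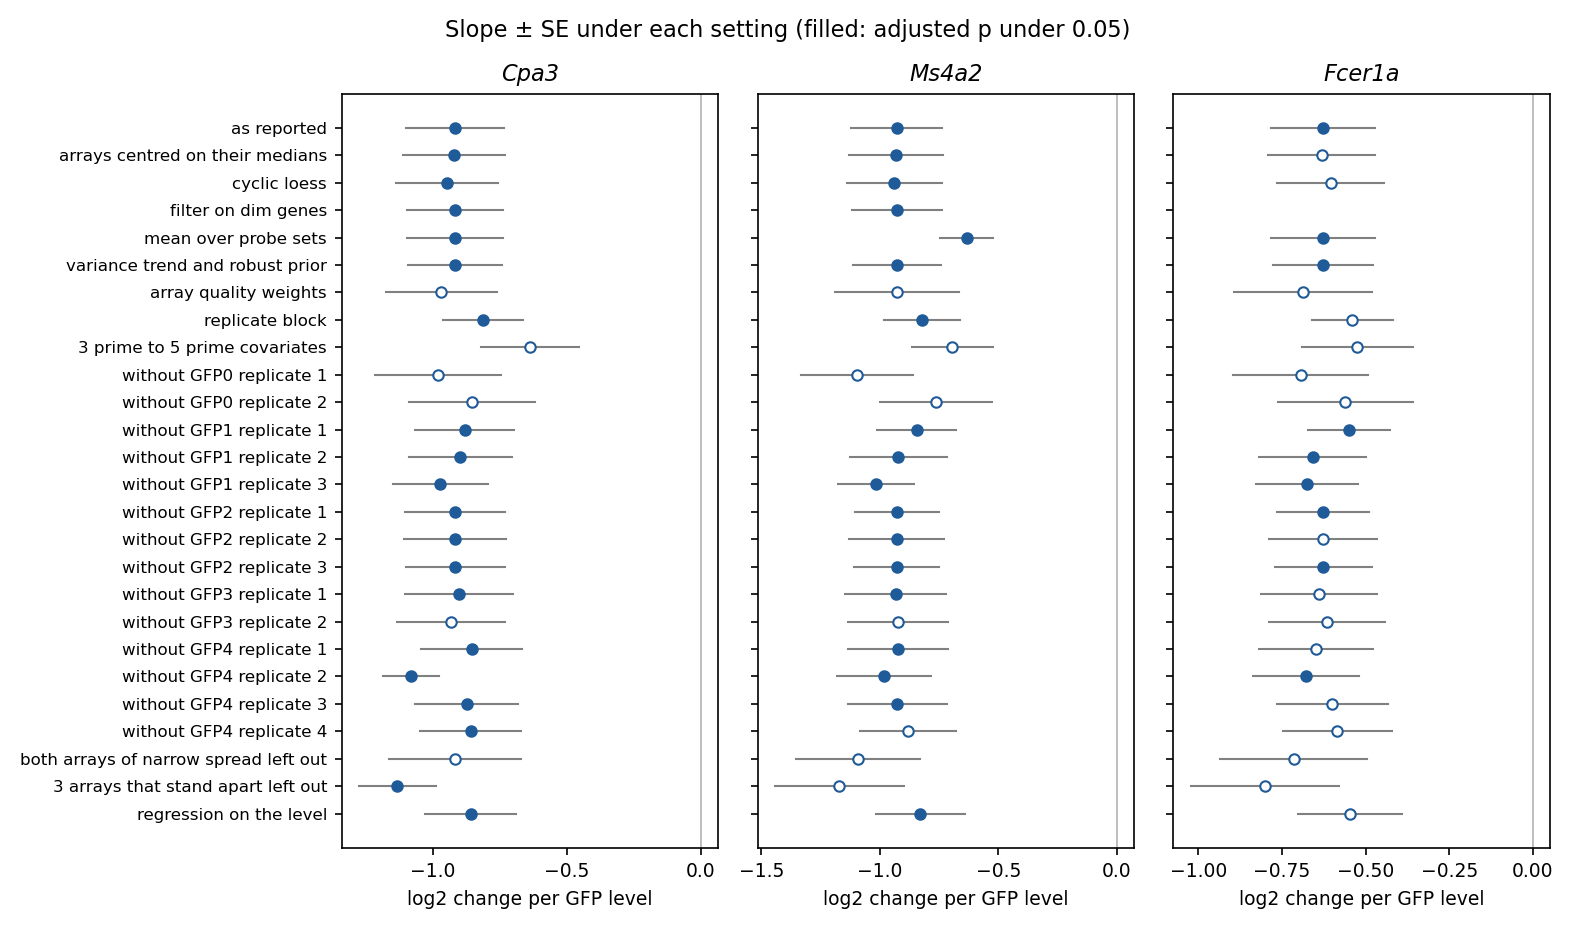
Slope per GFP level with its SE for Cpa3, Ms4a2 and Fcer1a under each setting; filled points have an adjusted p under 0.05, and Fcer1a has no value under the filter on dim genes, which removes it. All slopes are negative; Cpa3 passes in 19 of 25 alternatives, Ms4a2 in 17 of 25 and Fcer1a in 8 of 24.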

How the data were processed

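Amplified, biotin-labelled RNA of 14 sorted samples was put on Affymetrix arrays, per the labels' protocols. The submitters' processing notes name GCOS, RMA and affy without versions. The authors' deposited values are log2 probe-set expression from 2.69 to 15.1 (median 7.03), as the values themselves show; no detection calls come with them. RMA draws low values together, so folds of dim genes are understated. Of 45101 probe sets, 34958 named 1 symbol in the platform annotation, 932 several and 9211 none; 34754 matched the RefSeq table (GRCm38.p6). The brightest probe set stood for a gene.

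In limma 3.58.1 (R 4.3.3) group means were fitted to 18194 genes on all 14 arrays, with 9 residual and 3.99 prior degrees of freedom. Contrasts were the slope per level over GFP0 to GFP4 and over GFP1 to GFP4, GFP4 against GFP0, the 4 steps, and F tests of any difference and of departure from a line. Contrasts were tested two-sided. Adjusted p-values are Benjamini-Hochberg values across the 18194 genes, or across the 34958 probe sets with 1 symbol where a second probe set is given, with a threshold of 0.05; the fits were tested on simulated data. Errors of estimates are moderated standard errors. The number of arrays limits the precision.

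The 8 genes and the lists were chosen with earlier results of these data known. Named beyond the 8 were up to 3 genes per list and direction past the threshold for the slope, 8 genes by name, and the 5 most alike genes; others named were chosen after their values were seen. Alternatives were other scalings, a filter on dim genes, other probe set rules, another variance model, array weights, a replicate block, 3 prime to 5 prime covariates, a regression on the level, only the groups compared, and leaving out arrays. Figures were drawn with matplotlib 3.10.9.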

Additional observations from a re-analysis of the deposited data

Results flagged for a closer look

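Within GFP4, the only level with enough arrays to be examined one by one, 3 genes had 1 array far from the others. Cpa3 read 9.77 on GFP4 replicate 2, and the gap to the next array was 0.915 of the whole range of the 4 arrays. Mcpt8 read 10.04 on the same array (0.849 of the range). Tpsb2 read 6.81 on GFP4 replicate 1 (0.929 of the range), an array of narrow spread on which the odorant receptor probe sets were high as well. All 3 exceed the 95% limit of Dixon's test. Chance gives about 1 such array in 20 groups, and 25 groups were examined. Hdc read 10.20 on GFP4 replicate 2 and stayed inside the limit. On that array the neutrophil and monocyte markers averaged 10.70, against 8.17 to 9.10 on the other GFP4 arrays; their part in these values was not tested.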

How the results depend on the processing

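For the 24 results on single members, 599 values were computed under alternatives: 551 kept their side of the threshold, 30 no longer passed, 18 newly passed and 0 turned their sign as called results. The 551 include uncalled values that changed sign, such as the slope of Tpsb2 over GFP0 to GFP4, which was negative in 16 of 24 alternatives. Members called over the slope numbered 3; the count was 0 with array quality weights, 0 with 3 prime to 5 prime covariates, 0 without both arrays of narrow spread and 1 without the 3 arrays that stood apart, 4 with the mean over probe sets and 4 with the other variance model (Gzmb added both times), and 0 to 4 when 1 array was left out. Members called for GFP4 against GFP0 numbered 0. The count was 2 with the filter on dim genes (Cpa3 and Ms4a2). That filter left 11719 of the 18194 genes in the test and did not alter the values of these 2 genes. Ms4a2 was above the dim range on 0 of 2 GFP3 arrays and 1 of 4 GFP4 arrays. Its place among the genes kept thus rests on its brighter levels, and the filter is not independent of the difference tested. These 2 passes are therefore no separate support for a difference. The count was 1 with the mean over probe sets and 1 with every probe set by itself. It was 0 to 1 when 1 array of GFP1, GFP2 or GFP4 was left out. For the slope over GFP1 to GFP4 the count of 0 became 1 with array quality weights and 1 without the 3 arrays that stood apart (Cpa3 both times), and 0 to 1 when 1 array was left out; for any difference between levels it was 0 to 1, the 1 being Cpa3 without GFP4 replicate 2. Genes of the other lists called over the slope numbered 11, against 17 with the mean over probe sets, 5 with array quality weights, 7 with the replicate block, 6 with 3 prime to 5 prime covariates, 5 without both arrays of narrow spread, and 6 to 19 when 1 array was left out. With 3 prime to 5 prime covariates the slope of Cpa3 was -0.64 (adjusted p = 0.155). The causes of these changes were not tested. With the replicate block 2 members were called over the slope, Cpa3 and Ms4a2; samples of the same number shared deviations no more than that number (median r = 0.05 over 23 pairs, from -0.26 to 0.58, against -0.05 over 54 pairs of other numbers). The regression on the level and the fit of only the groups compared gave values for some comparisons alone. On dim readings, RMA limits what can be seen in Fcer1a, Cma1 and Tpsb2.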

Other observations

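The genes named here were chosen after their values were seen. Fcgr3, a low-affinity IgG receptor of myeloid cells and mast cells, read 12.18 on GFP1 replicate 1, 11.58 on GFP2 replicate 1 and 10.88 on GFP4 replicate 2, and 6.77 to 7.68 on the other 3 GFP4 arrays. Its slope was -0.57 ± 0.30 (SE; limma adjusted p = 0.380). Slc18a2, the transporter that loads amines such as histamine into vesicles, read 6.82 and 7.24 at GFP0, 7.78 and 8.62 at GFP3, and 6.92, 7.89, 7.42 and 8.02 at GFP4, with a slope of 0.26 ± 0.12 (adjusted p = 0.286), the opposite sign to that of Hdc. Srgn, the serglycin core of mast cell granules, lay between 13.42 and 14.05 on all 14 arrays.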
